A study of Mus musculus with 35 samples.

Results

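Glucocorticoid-responsive genes were followed in CD45+ve microglia of the mouse brain between early postnatal life and adulthood. The 10 genes are Nr3c1, which encodes the glucocorticoid receptor, and 9 genes that glucocorticoids are known to induce: Fkbp5, Tsc22d3, Per1, Sgk1, Klf9, Zbtb16, Mt1, Mt2 and Ddit4. They were chosen by name, were found among the 55401 gene rows of the raw count table by their Ensembl identifiers, and all 10 passed the filter on low counts, which left 17612 genes for testing. The cells came from whole brains of male and female wild-type C57BL/6 mice at P6 (postnatal day 6), P15 and 8 weeks. The labels name no drug, transgene or altered allele, and the groups differ in age and sex. Brains were digested to single cells and the cells that bound a dish coated with antibody to CD45, a surface protein of leukocytes, were lysed for RNA, so each library is a bulk sample of 1 mouse. The groups compared held 10 mice at P6 (4 female and 6 male), 12 at P15 and 12 at 8 weeks, and 1 further P6 mouse (female 6), which is not among the mice the study lists, was kept out of every comparison. Library totals ran from 23316107 to 38965078 counts, so that 3 counts, taken as the floor, stand for 0.077 to 0.129 CPM, a count scaled to the same total in every library.

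Glucocorticoids are steroid hormones of the adrenal cortex, corticosterone being the main one in mice. The hormone enters the cell and binds the receptor, which is held ready by heat-shock chaperones, and the bound receptor moves to the nucleus and switches genes on or off through glucocorticoid response elements. Mouse pups pass through a stress-hyporesponsive period in the first postnatal weeks, in which circulating corticosterone is low and stress raises it little, and P6 lies inside this period. Microglia carry the receptor, and glucocorticoids are known to damp their inflammatory responses. The induced genes also answer to other signals, such as the circadian clock, zinc, low oxygen and the stress of cell isolation, so their RNA is not a direct reading of the hormone, which was not measured in these files.

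More of the 10 genes rose than fell after P6, and the change lay mainly between P6 and P15. By edgeR's quasi-likelihood test at a false discovery rate (FDR) below 0.05, 8 members were higher at P15 than at P6, 1 (Zbtb16) was lower and 1 (Ddit4) did not pass. Of all 17612 genes, 30.4% were called higher and 31.4% lower in that comparison. The median log2 fold change (log2FC) of the members was 0.80, beside -0.01 for all genes. Between P15 and 8 weeks the members moved less: 1 rose (Nr3c1), 3 fell (Fkbp5, Klf9 and Ddit4) and 6 did not pass, where 24% of all genes were called higher and 23.9% lower. The median log2FC was -0.21 for the members and 0.02 for all genes. Over the whole span from P6 to 8 weeks, 7 members rose, 1 fell (Zbtb16) and 2 did not pass (Fkbp5 and Ddit4), against 37.8% and 36.6% of all genes. The medians were 0.63 for the members and 0.04 for all genes.

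A change of more than 2-fold, tested as such with edgeR's TREAT test, was called for Tsc22d3, Sgk1 and Klf9 from P6 to P15, for no member from P15 to 8 weeks, and for Nr3c1, Tsc22d3 and Sgk1 from P6 to 8 weeks. All of these were increases. Over all genes, 4.87% passed this test upwards and 4.85% downwards from P6 to P15, 1.2% and 3.07% from P15 to 8 weeks, and 11.5% and 12.4% from P6 to 8 weeks. The mice of both ages did not overlap in 2 members (Tsc22d3 and Sgk1) from P6 to P15, in 0 from P15 to 8 weeks and in 3 (Nr3c1, Tsc22d3 and Sgk1) from P6 to 8 weeks. The shares of all genes without overlap were 13%, 3.37% and 29.6%. The comparisons share mice: P15 stands in the first and in the second, and P6 and 8 weeks each stand in 2 of them.

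**Figure D1:**
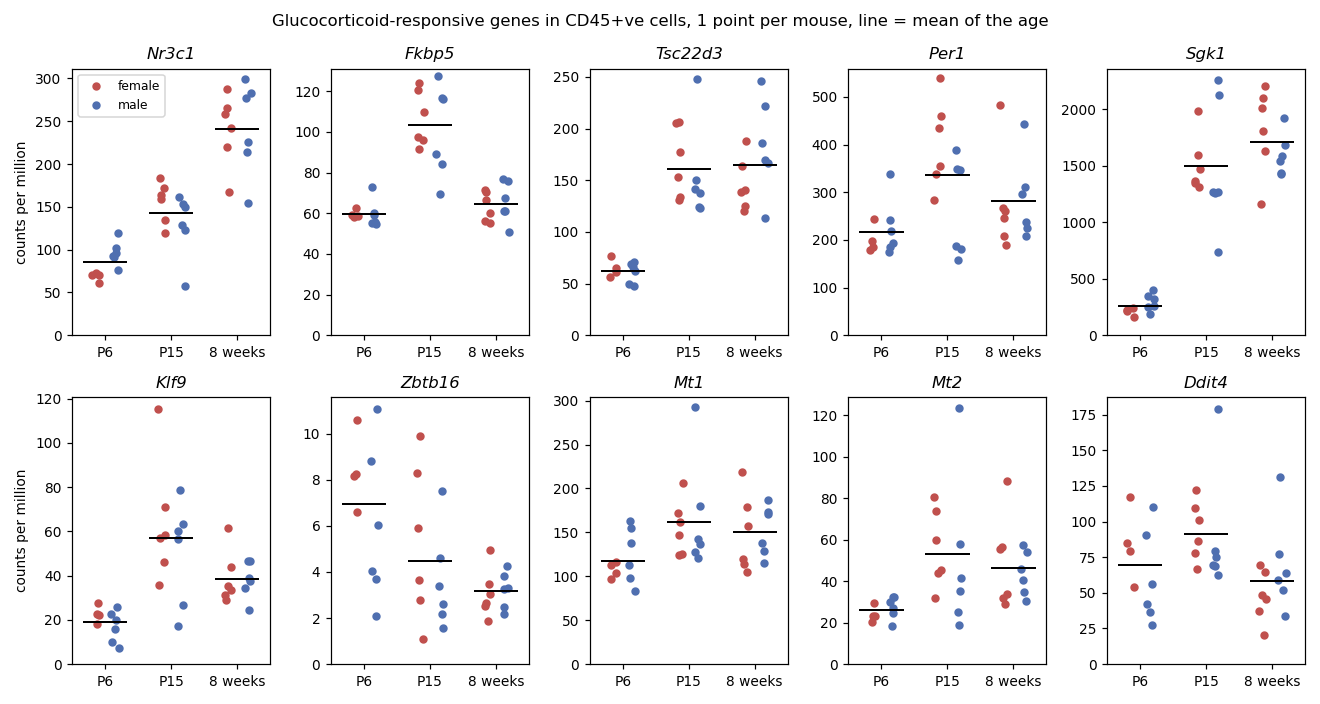
TMM-scaled CPM of each of the 10 genes on a linear axis from 0, with 1 point per mouse, females in red and males in blue, and the mean of each age as a line. Sgk1 at P6 lies between 164 and 401 CPM, below every P15 and 8-week mouse, while the ages overlap throughout for Per1, Mt1, Mt2, Zbtb16 and Ddit4.

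Nr3c1 (ENSMUSG00000024431, chr18:39410545-39519421, minus strand, GRCm38) rose at each step. Its level was 60.9 CPM in the lowest P6 mouse, 83.8 at the median and 120 in the highest. At P15 the same figures were 57.0, 152 and 184 CPM, and at 8 weeks they were 155, 250 and 299 CPM. Every 8-week mouse was thus above every P6 mouse. At P15 a single mouse, male 1, lay below all P6 mice at 57.0 CPM, and the next lowest P15 mouse had 120 CPM. Its mean was 85.2 ± 18 CPM at P6 (SD, n = 10), 142 ± 33.5 at P15 (n = 12) and 241 ± 46.6 at 8 weeks (n = 12). The log2FC was 0.80 from P6 to P15 (SE 0.13, FDR 5.74e-06), 0.77 from P15 to 8 weeks (SE 0.13, FDR 1.04e-05) and 1.57 from P6 to 8 weeks (SE 0.14, FDR 9.88e-12), a fold of 2.97. The call from P15 to 8 weeks was lost with the neuron and progenitor markers as a covariate (log2FC 0.40, FDR 0.0923) and with the neuron and progenitor, astrocyte and oligodendrocyte markers together (0.51, FDR 0.0958). The 2-fold call from P6 to 8 weeks (FDR 0.000105) was lost with the neuron and progenitor covariate (0.827), the immediate-early and heat-shock covariate (0.169) and the 3 marker lists together (0.203). The 3 genes whose deviations from the age and sex means followed Nr3c1 most closely over the 34 mice were Cyld (r = 0.989), a deubiquitinase that restrains NF-kappa-B signalling, Ccdc50 (r = 0.983) and Ptbp3 (r = 0.982), an RNA-binding splicing factor. Such likeness was common for Nr3c1, as the top 1% of all genes tested began at an r of 0.94.

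Fkbp5 (ENSMUSG00000024222, chr17:28399094-28517527, minus strand) encodes FKBP51, a co-chaperone that lowers the hormone affinity of the receptor and is itself induced by it. It peaked at P15. The lowest, median and highest mice had 54.6, 59.0 and 73.0 CPM at P6, 69.3, 104 and 127 CPM at P15, and 50.9, 63.9 and 76.8 CPM at 8 weeks. The P15 range met the others only at its lower end. The log2FC was 0.79 from P6 to P15 (SE 0.09, FDR 8.95e-09) and -0.68 from P15 to 8 weeks (SE 0.09, FDR 1.52e-07). From P6 to 8 weeks it was 0.11 (95% interval -0.08 to 0.30, FDR 0.275), so a difference between the youngest and the oldest mice was not detected. That last value became 0.42 (FDR 0.00191) with the astrocyte markers as a covariate and -0.52 (FDR 0.013) with those of neurons and progenitors. The closest genes were Tle3 (r = 0.767), a transcriptional corepressor, Myo7a (r = 0.745) and Unk (r = 0.744). The 250 bases before the start that the RefSeq promoter table lists for Fkbp5, which lies inside the span of the gene, are shown because they hold the clock-type E-box CACGTG, in capitals, at position -169 (RefSeq, GRCm38.p6, chr17:28486150-28486399, minus strand):

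Fkbp5 upstream window: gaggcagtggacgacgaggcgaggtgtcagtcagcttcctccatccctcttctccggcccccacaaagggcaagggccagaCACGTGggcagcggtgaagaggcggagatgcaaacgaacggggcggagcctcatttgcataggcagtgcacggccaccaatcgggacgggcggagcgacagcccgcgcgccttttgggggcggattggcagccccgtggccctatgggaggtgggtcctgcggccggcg

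Tsc22d3 (ENSMUSG00000031431, chrX:140539528-140600659, minus strand) encodes GILZ, a leucine zipper protein that mediates part of the anti-inflammatory action of glucocorticoids. It stepped up between P6 and P15 and stayed within the same range. The lowest, median and highest values were 47.6, 63.5 and 76.5 CPM at P6, 123, 146 and 248 CPM at P15, and 114, 165 and 246 CPM at 8 weeks. No P6 mouse reached the level of any older mouse. The log2FC was 1.35 from P6 to P15 (SE 0.13, FDR 2.6e-10) and 1.38 from P6 to 8 weeks (SE 0.13, FDR 7.79e-11), folds of 2.56 and 2.61. From P15 to 8 weeks it was 0.03 (95% interval -0.22 to 0.27, FDR 0.864). The 2-fold call from P6 to P15 had an FDR of 0.0139 and did not hold when library size replaced the TMM scaling (0.12), in limma-voom (0.0802), in DESeq2 (0.0915) or with the astrocyte (0.394), immediate-early (0.323) or 3 marker covariates (0.425). That from P6 to 8 weeks (FDR 0.00335) did not hold with library size (0.054) or with the same covariates (0.172, 0.816 and 0.336). With the markers of 3 other cell classes as covariates together, the log2FC from P6 to 8 weeks was 1.51 with an FDR of 0.0786. Camkk1 (r = 0.758), a kinase that activates calcium-dependent kinases and AMPK, Pla2g6 (r = 0.753) and Otub2 (r = 0.753) deviated most like it.

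Sgk1 (ENSMUSG00000019970, chr10:21882184-21999903, plus strand) encodes a serum- and glucocorticoid-regulated kinase that acts on ion channels and on FOXO factors. It showed the largest rise of the 10 genes. Its lowest, median and highest values were 164, 245 and 401 CPM at P6. At P15 they were 736, 1358 and 2256 CPM, and at 8 weeks 1158, 1658 and 2207 CPM. The gap between the highest P6 mouse and the lowest P15 mouse, male 1, was 401 to 736 CPM, and the next P15 mouse had 1262 CPM. Sgk1 rose by a log2FC of 2.58 from P6 to P15 (SE 0.16, FDR 1.02e-14) and 2.77 from P6 to 8 weeks (SE 0.17, FDR 7.9e-16). These are folds of 6.00 (95% interval 4.76 to 7.56) and 6.83 (5.4 to 8.63). From P15 to 8 weeks the log2FC was 0.19 (95% interval -0.10 to 0.47, FDR 0.275), and it turned to -0.57 (FDR 0.00163) with the neuron and progenitor markers as a covariate. The same covariate brought the log2FC from P6 to 8 weeks to 1.41 (FDR 2.78e-06), no longer past 2-fold by TREAT (FDR 0.0555), nor was it with the 3 marker covariates (0.214). Sat1 (r = 0.903), which acetylates polyamines, Btg1 (r = 0.896), an antiproliferative factor, and Txnip (r = 0.895), an inhibitor of thioredoxin that glucocorticoids induce, deviated most like Sgk1.

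RefSeq lists 6 starts for Sgk1. The window before the fifth is shown because it holds the palindromic glucocorticoid response element, in capitals, at position -189 from the listed start (GRCm38.p6, chr10:21993640-21993889, plus strand, inside the span of the gene). Only 3 of the 32851 RefSeq promoter windows searched (0.00913%), each of 250 bases before and 50 after a start, held that full element on either strand. It was searched as AGAACA, any 3 bases and TGTTCT without mismatch, so looser forms of the element were not counted. The half-site AGAACA was far more common, in 19% of all windows and in 4 of the 16 windows of the members (Sgk1 and Tsc22d3). A half-site at -242 in the Sgk1 window shares bases with an E-box at -246. These matches describe the letters of the reference and no binding was measured.

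Sgk1 upstream window: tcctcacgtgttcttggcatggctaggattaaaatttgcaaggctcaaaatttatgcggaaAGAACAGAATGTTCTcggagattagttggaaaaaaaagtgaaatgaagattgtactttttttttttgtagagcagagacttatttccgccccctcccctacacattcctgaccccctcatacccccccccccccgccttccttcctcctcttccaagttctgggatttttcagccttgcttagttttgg

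Klf9 (ENSMUSG00000033863, chr19:23141226-23168134, plus strand) encodes a Krüppel-like transcription factor that the receptor induces in many tissues. It was highest at P15. The lowest, median and highest mice had 7.38, 21.2 and 27.8 CPM at P6, 17.2, 57.7 and 115 CPM at P15, and 24.5, 36.5 and 61.4 CPM at 8 weeks. P15 was the most spread of the ages, its range reaching from inside that of P6 to above that of 8 weeks. Klf9 rose by a log2FC of 1.53 from P6 to P15 (SE 0.24, FDR 1.79e-06). The log2FC was -0.56 from P15 to 8 weeks (SE 0.22, FDR 0.0331) and 0.98 from P6 to 8 weeks (SE 0.23, FDR 0.000402). The 2-fold call from P6 to P15 (FDR 0.0358) was lost without any 1 of 10 mice: P15 female 2, P15 males 1, 2, 3 and 4, P6 females 1, 3 and 5 and P6 males 1 and 5 (FDR up to 0.113). It was also lost with library size in place of TMM (0.138), in limma-voom (0.292) and DESeq2 (0.218), with all 35 mice (0.0683), no filter (0.0693), at least 10 counts in every mouse (0.068) and only the 2 ages in the fit (0.058). The call from P15 to 8 weeks was lost without 8-week female 2, 8-week male 4, P15 female 2, P15 male 1 or P15 male 4 (FDR up to 0.075), in limma-voom (-0.46, FDR 0.0716), with no filter (FDR 0.0624), with a replicate block (FDR 0.0573) and with the astrocyte covariate (-0.28, FDR 0.0683). With the astrocyte markers as a covariate the log2FC from P6 to P15 was 0.02 (FDR 0.935) and that from P6 to 8 weeks was -0.26 (FDR 0.263). The other covariates left the rise from P6 to P15 larger: it was 2.55 (FDR 2.11e-17) with the neuron and progenitor markers, 1.97 (FDR 7.71e-08) with immediate-early and heat-shock genes and 2.03 (FDR 1.61e-05) with the neuron and progenitor, astrocyte and oligodendrocyte markers together. The step from P15 to 8 weeks turned to 1.06 (FDR 9.95e-07) with the neuron and progenitor markers and to 0.74 (FDR 0.000984) with those 3 lists together. Wasf3 (r = 0.977), an actin regulator abundant in neurons, Nedd4 (r = 0.964), a ubiquitin ligase, and Enah (r = 0.96), another actin regulator, deviated most like Klf9.

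Zbtb16 (ENSMUSG00000066687, chr9:48654297-48836222, minus strand) encodes PLZF, a zinc finger repressor and a strong glucocorticoid target in several human tissues. It was the least abundant member and the only one called lower than at P6. Its lowest, median and highest values were 2.08, 7.39 and 11.1 CPM at P6, 1.09, 3.53 and 9.89 CPM at P15, and 1.88, 3.15 and 4.97 CPM at 8 weeks. The ages overlapped throughout, and every library was above the floor of 3 counts. The log2FC was -0.69 from P6 to P15 (SE 0.30, FDR 0.043), -0.47 from P15 to 8 weeks (SE 0.28, FDR 0.17) and -1.16 from P6 to 8 weeks (SE 0.30, FDR 0.000817). The first of these calls was lost without any 1 of 11 mice (FDR up to 0.0874): P15 females 4, 5 and 6, P15 males 2, 3, 5 and 6, P6 female 3 and P6 males 2, 3 and 4. It was also lost with no filter (FDR 0.0639), without sex in the fit (0.0595), with a replicate block (0.052) and with only the 2 ages in the fit (0.089). With the immediate-early and heat-shock covariate the log2FC of this step was -0.41 (FDR 0.363). Its sign changed with the neuron and progenitor covariate (0.35, FDR 0.266) and with the 3 marker covariates (0.995, FDR 0.28). With the neuron and progenitor markers as a covariate, the fall from P6 to 8 weeks turned to a log2FC of 1.68 (FDR 0.00425). With the astrocyte markers it was larger, at -2.28 (FDR 5.61e-06), and the fall from P6 to P15 was -2.08 (FDR 0.000202), past 2-fold by TREAT (FDR 0.0148). Plxna3 (r = 0.888), a semaphorin receptor of neurons, Carmil3 (r = 0.887) and Rbfox2 (r = 0.88), a splicing factor, deviated most like Zbtb16.

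Per1 (ENSMUSG00000020893, chr11:69095217-69109960, plus strand) encodes a repressor of the circadian clock that glucocorticoids induce directly. The time of day at which the mice were killed is not given in the sources used here, so its part in the differences of Per1 and other clock genes between ages was not tested. Its lowest, median and highest values were 175, 196 and 338 CPM at P6, 158, 347 and 540 CPM at P15, and 189, 254 and 484 CPM at 8 weeks. The spread within an age was wide beside the shift between ages, and all ages overlapped. The log2FC was 0.62 from P6 to P15 (SE 0.18, FDR 0.00312) and -0.22 from P15 to 8 weeks (95% interval -0.56 to 0.12, FDR 0.271). The call from P6 to P15 was lost with the neuron and progenitor covariate (0.40, FDR 0.124), the immediate-early and heat-shock covariate (0.14, FDR 0.548) and the neuron and progenitor, astrocyte and oligodendrocyte covariates together (0.99, FDR 0.226). From P6 to 8 weeks it was 0.40 (SE 0.18, FDR 0.041), a call lost without any 1 of 21 of the 34 mice (log2FC down to 0.29 and FDR up to 0.116, without 8-week female 6). Those mice were 8-week females 4, 5 and 6, 8-week males 4, 5 and 6, P15 females 1, 2, 4, 5 and 6, P15 males 1 and 3, P6 females 1, 2, 3 and 5 and P6 males 2, 3, 4 and 6. With library size in place of the TMM scaling the value was 0.27 (FDR 0.137), and the call was also lost in limma-voom (FDR 0.0551), with no filter (0.0684), at least 10 counts in every mouse (0.0604), no sex in the fit (0.0585) and a replicate block (0.0615). The closest genes were Nfkbib (r = 0.907), an NF-kappa-B inhibitor, Kdm6b (r = 0.902), a histone demethylase of inflammatory genes, and Osgin1 (r = 0.896). The window before 1 of the RefSeq starts of Per1 inside the span of the gene (GRCm38.p6, chr11:69098699-69098948, plus strand) is shown for its E-box, in capitals, at position -166:

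Per1 upstream window: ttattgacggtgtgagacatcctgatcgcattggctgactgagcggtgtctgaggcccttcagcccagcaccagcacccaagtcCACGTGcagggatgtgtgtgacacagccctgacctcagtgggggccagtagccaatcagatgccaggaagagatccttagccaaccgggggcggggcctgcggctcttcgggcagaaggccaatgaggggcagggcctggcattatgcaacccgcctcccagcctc

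The E-box CACGTG stood in 3 of the 16 windows of the members (in Fkbp5, Per1 and Sgk1) and in 7.15% of all windows. The cyclic AMP response element TGACGTCA stood in 0 of the 16 and in 1.79% of all.

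Ddit4 (ENSMUSG00000020108, chr10:59949669-59951834, minus strand) encodes REDD1, an inhibitor of the growth kinase mTORC1 that hypoxia, DNA damage and glucocorticoids induce. Its lowest, median and highest values were 27.6, 67.6 and 117 CPM at P6, 62.6, 78.6 and 179 CPM at P15, and 20.8, 55.3 and 132 CPM at 8 weeks. All ages overlapped. The log2FC from P15 to 8 weeks was -0.67 (SE 0.23, FDR 0.0181), the only step that passed, and it was lost with the immediate-early and heat-shock covariate (-0.63, FDR 0.176) and with the 3 marker covariates (0.34, FDR 0.557). From P6 to P15 it was 0.36 (95% interval -0.14 to 0.86, FDR 0.204), and from P6 to 8 weeks -0.31 (95% interval -0.80 to 0.19, FDR 0.255). With the neuron and progenitor markers as a covariate these 3 values became 0.24 (FDR 0.57), 1.03 (FDR 0.0025) and 1.27 (FDR 0.0293). Without P15 male 1, the highest mouse of its age, the log2FC was 0.19 from P6 to P15 and -0.53 from P15 to 8 weeks. Rnf122 (r = 0.824), a ubiquitin ligase, Mycl (r = 0.776), a MYC family factor, and Lsm14b (r = 0.761) deviated most like Ddit4.

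Mt1 (ENSMUSG00000031765, chr8:94179082-94180327, plus strand) and Mt2 (ENSMUSG00000031762, chr8:94172664-94173568, plus strand) are neighbours that encode metallothioneins, small cysteine-rich proteins that bind zinc and copper. Glucocorticoids, metals and oxidative stress induce both. They are close paralogs, so reads that match both may be missed in counting. The lowest, median and highest values of Mt1 were 83.3, 113 and 163 CPM at P6, 121, 145 and 293 CPM at P15, and 105, 148 and 218 CPM at 8 weeks. Those of Mt2 were 18.4, 25.8 and 32.5 CPM at P6, 19.1, 44.8 and 123 CPM at P15, and 28.9, 43.0 and 88.5 CPM at 8 weeks. For both genes the ages overlapped, and P15 male 1 was the highest of all mice. From P6 to P15 the log2FC was 0.48 for Mt1 (SE 0.15, FDR 0.00757) and 1.04 for Mt2 (SE 0.24, FDR 0.000466). Without P15 male 1 these were 0.36 and 0.79. From P15 to 8 weeks neither passed, with -0.10 for Mt1 (95% interval -0.39 to 0.19) and -0.19 for Mt2 (-0.65 to 0.26). From P6 to 8 weeks Mt1 rose by 0.37 (SE 0.15, FDR 0.0267) and Mt2 by 0.85 (SE 0.24, FDR 0.00235). The call for Mt1 was lost without any 1 of 8 mice (FDR up to 0.0827): 8-week females 1 and 5, 8-week males 4 and 6, P6 females 2 and 3 and P6 males 3 and 4. It was also lost with library size in place of TMM (0.24, FDR 0.154). With the astrocyte markers as a covariate, Mt2 had a log2FC of -0.49 (FDR 0.0866) from P6 to P15 and -0.41 (FDR 0.0993) from P6 to 8 weeks, and Mt1 had -0.13 (FDR 0.615) and -0.14 (FDR 0.506). Grina, Pygm and Lrrc8a deviated most like Mt1 (r = 0.902, 0.894 and 0.894). Prodh, Lgi4 and Pygm did so for Mt2 (r = 0.939, 0.937 and 0.933), Pygm being a glycogen phosphorylase and Prodh a proline dehydrogenase.

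The windows before the RefSeq starts of both metallothionein genes are shown for the core of the metal response element, searched as TGCACNC or TGCGCNC on both strands and set in capitals (GRCm38.p6, chr8:94178839-94179088 and chr8:94172368-94172617, plus strand). The Mt1 window held it once and the Mt2 window 3 times in these 250 bases. Over all windows of 300 bases 25.7% held the core, as did 5 of the 16 windows of the members (1 each for Ddit4, Mt1, Mt2, Per1 and Sgk1).

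Mt1 upstream window: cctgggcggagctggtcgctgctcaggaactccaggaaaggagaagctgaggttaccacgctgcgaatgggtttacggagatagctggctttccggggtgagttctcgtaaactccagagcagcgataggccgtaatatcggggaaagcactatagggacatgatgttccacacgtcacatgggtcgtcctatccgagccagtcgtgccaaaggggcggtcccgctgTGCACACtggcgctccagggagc
Mt2 upstream window: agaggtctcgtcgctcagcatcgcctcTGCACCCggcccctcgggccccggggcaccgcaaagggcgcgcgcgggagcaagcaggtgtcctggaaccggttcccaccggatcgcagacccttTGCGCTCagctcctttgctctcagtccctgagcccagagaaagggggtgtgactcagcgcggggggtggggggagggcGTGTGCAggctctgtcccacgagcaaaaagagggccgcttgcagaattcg

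RPKM, the CPM per kilobase of annotated exon, allows levels to be compared between genes. Sgk1 had the highest mean at P15 and 8 weeks (306 and 349 RPKM), and Mt1 the highest at P6 (94.7 RPKM, with Sgk1 at 53.4). Zbtb16 had the lowest mean at every age, from 1.31 RPKM at P6 to 0.598 at 8 weeks. The receptor itself went from 11.1 RPKM at P6 through 18.5 to 31.4 at 8 weeks, and Fkbp5 from 6.31 through 10.9 to 6.81.

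**Figure D2:**
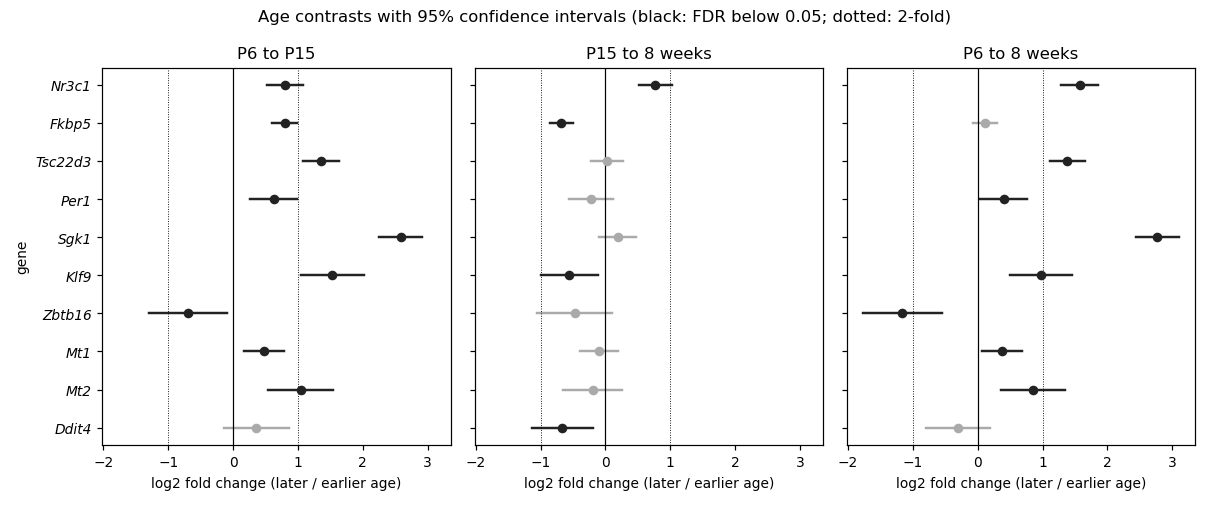
The log2FC of each member in the 3 age comparisons, with 95% intervals from the edgeR fit, black where the FDR was below 0.05, grey elsewhere, and dotted lines at 2-fold. Sgk1 stands apart at 2.58 and 2.77 in the comparisons with P6, and most intervals from P15 to 8 weeks cross 0.

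Males and females did not differ detectably in any member. By the same edgeR fit 0 of the 10 passed an FDR of 0.05 between the sexes at any age, and 0 of the 10 in the 3 tests of whether the sex difference changed with age. Over all genes the shares called were 0.0511% at P6, 0.0681% at P15, 0.114% at 8 weeks and 0% in each of the 3 tests of change. The count of members remained 0 in limma-voom, DESeq2 and each other setting tried. At an unadjusted p below 0.05 there were 2 members at P6, 1 at P15 and 0 at 8 weeks. At P6 these were Nr3c1, with a log2 difference of 0.49 (males minus females, FDR 0.696), and Sgk1, with 0.48 (FDR 0.696). At P15 it was Per1, with -0.58 (FDR 0.254). The change of the sex difference had an unadjusted p below 0.05 for 2 members from P6 to P15 (Nr3c1 -0.76, FDR 0.152, and Per1 -0.74, FDR 0.233), for 0 from P15 to 8 weeks and for 2 from P6 to 8 weeks (Sgk1 -0.67 and Ddit4 1.01, both at FDR 0.858).

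The panned cells carried microglial markers at every age, beside markers of other brain cells whose amounts changed with age. All 6 genes of the microglial list, which includes Sall1, Siglech and Tmem119, were detected, with a summed level of 5597 to 10063 CPM at P6, 12153 to 23881 at P15 and 15833 to 22512 at 8 weeks. The 6 neuronal markers had median sums of 693, 315 and 110 CPM in order of age, and the 9 markers of progenitors and immature neurons 1658, 326 and 103 CPM. From P6 to P15, 2 of the 6 neuronal markers were called higher and 2 lower (median log2FC -0.01), where 30.4% and 31.4% of all genes were. Of the 9 others, 0 were higher and 9 lower. The mean log2 CPM of the neuronal list, the scale used for covariates and correlations, was 5.77, 5.47 and 3.95. The sum of the 7 astrocyte markers went the other way, from a range of 452 to 1134 CPM at P6 to 852 to 6960 at P15 and 1773 to 5024 at 8 weeks. Of these 7, 5 were called higher and 0 lower from P6 to P15, and 5 higher and 1 lower from P6 to 8 weeks. The 7 markers of the oligodendrocyte lineage had median sums of 425, 1329 and 496 CPM, with 4 called higher and 2 lower from P6 to P15. The 5 erythroid markers (globins and Alas2) peaked at P15 like Fkbp5 and Klf9, with median sums of 2124, 5244 and 2050 CPM, 5 of 5 being called higher from P6 to P15 and 5 of 5 lower from P15 to 8 weeks. The 6 lymphocyte markers had median sums of 6.10, 16.9 and 18.1 CPM, and 6 of 6 were called higher from P6 to 8 weeks. The part of these blood cell markers in the results was not tested. In a bulk sample, fewer cells of a type and less RNA per cell cannot be told apart. P15 male 1 stood apart: against its group's mean in log2 CPM, its astrocyte markers deviated by 1.06, its neuron and progenitor markers by 1.19 and its oligodendrocyte markers by 1.33, and its microglial markers by -0.66. It was the lowest P15 mouse in Nr3c1 and Sgk1 and the highest in Tsc22d3, Mt1, Mt2 and Ddit4.

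Several members varied between mice of the same age and sex together with these markers. Each member's deviation of log2 CPM from its age and sex mean was set beside the mean deviation of 7 marker lists over the 34 mice. Of the 70 relations, 19 were positive and 18 negative at an adjusted permutation p below 0.05 for Pearson's r. The smallest p that the permutations can give is 1e-05. Their part in the differences between ages was not tested by these relations.

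Klf9 followed the neuron and progenitor markers (r = 0.932, rho = 0.905, adjusted permutation p = 0.000117 and 0.000175), in each age alone (r = 0.903 at P6, 0.971 at P15 and 0.883 at 8 weeks). Without the 2 mice farthest from its median the relation was still 0.918. Klf9 also ran with the astrocyte markers (r = 0.833, rho = 0.785) and against the microglial ones (r = -0.884, rho = -0.844), with an adjusted permutation p of 0.000117 for each r, and these were 0.767 and -0.868 without the 2 farthest mice. Zbtb16 had the same signs, with r = 0.769 for neurons and progenitors and -0.819 for microglia (rho = 0.752 and -0.792, adjusted permutation p = 0.000117 for both r). Ddit4 also ran against the microglial markers (r = -0.673, rho = -0.666, adjusted permutation p = 0.000525 and 0.00091). Tsc22d3 did so more weakly (r = -0.478, rho = -0.462, adjusted permutation p = 0.0235 and 0.0319). Without the 2 farthest mice, r against the microglial markers was -0.82 for Zbtb16, -0.598 for Ddit4 and -0.39 for Tsc22d3, and that of Zbtb16 with the neuron and progenitor markers was 0.74.

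Sgk1 showed the opposite signs. It followed the microglial markers (r = 0.728, rho = 0.468, adjusted permutation p = 0.00124 and 0.0428) and ran against those of neurons and progenitors (r = -0.801, rho = -0.718, adjusted permutation p = 2e-04 and 0.000389). Nr3c1 (r = 0.573, rho = 0.451, adjusted permutation p = 0.0139 and 0.0319) and Fkbp5 (r = 0.51, rho = 0.501, adjusted permutation p = 0.0234 for both) followed the microglial markers too. Without the 2 farthest mice the relations with the microglial markers were 0.596 for Sgk1, 0.482 for Nr3c1 and 0.469 for Fkbp5, and that of Sgk1 with the neuron and progenitor markers was -0.731. The 9 markers of monocytes and border macrophages, cells that also carry CD45, ran with the same members: r was 0.586 for Nr3c1 (rho = 0.421, adjusted permutation p = 0.0234 and 0.0507) and 0.57 for Fkbp5 (rho = 0.534, adjusted permutation p = 0.0166 and 0.021), or 0.423 and 0.51 without the 2 farthest mice. Their median sums were 976, 860 and 483 CPM in order of age, and their mean log2 CPM was 4.75, 4.91 and 4.72. From P6 to P15, 4 of the 9 were called higher and 3 lower, beside 30.4% and 31.4% of all genes. From P15 to 8 weeks 2 were higher and 6 lower, beside 24% and 23.9%.

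Mt2 followed the astrocyte markers (r = 0.794, rho = 0.731, adjusted permutation p = 0.000117 and 0.000389) at P15 (r = 0.932) and 8 weeks (r = 0.826), and the r was 0.0507 over the 10 mice of P6 and 0.702 without the 2 farthest mice. Mt1 had a weaker relation with them (r = 0.532, rho = 0.468, adjusted permutation p = 0.0168 and 0.0319), which was 0.364 without the 2 farthest mice. The genes that dissociation of tissue is known to switch on, 20 immediate-early and heat-shock genes, moved with Sgk1 (r = 0.722, rho = 0.774, adjusted permutation p = 0.00126 and 0.000389) and Per1 (r = 0.631, rho = 0.689, adjusted permutation p = 0.0056 and 0.000389). Without the 2 farthest mice these were 0.697 and 0.701. Fkbp5 passed as well (r = 0.525, rho = 0.524, adjusted permutation p = 0.0239 and 0.021), with 0.393 without the 2 farthest mice. Klf9 ran against the list (r = -0.518, rho = -0.485, adjusted permutation p = 0.0234 and 0.0319), with -0.423 without the 2 farthest mice. The sum of the list had medians of 10909 CPM at P6, 15212 at P15 and 22059 at 8 weeks. With the mean of this list as a covariate, the log2FC from P6 to P15 was 2.12 for Sgk1 (FDR 4.76e-14) and 0.14 for Per1 (FDR 0.548). From P6 to 8 weeks these were 1.76 (FDR 7.2e-08) and -0.64 (FDR 0.0649).

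**Figure D3:**
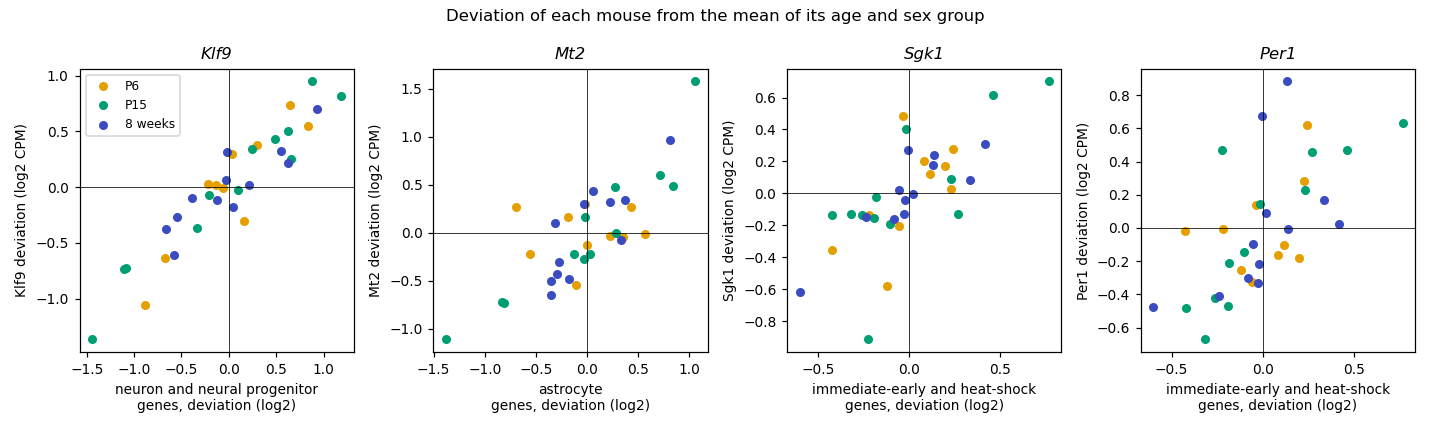
Deviations of log2 CPM from the age and sex mean, 1 point per mouse coloured by age, for Klf9, Mt2, Sgk1 and Per1 (vertical axis) against the mean deviation of a gene list (horizontal axis). Klf9 rises with the neuron and progenitor markers at every age (r = 0.932), and P15 male 1 lies at the far right for the astrocyte markers, with the highest Mt2.

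The members did not move as 1 block within an age. Of their 45 pairs, 12 had a positive and 8 a negative r at an adjusted permutation p below 0.05, and 25 did not pass. Mt1 and Mt2 were the closest pair (r = 0.891, rho = 0.866, adjusted permutation p = 0.00045 for both), with r from 0.904 to 0.951 within ages. The next were Klf9 with Zbtb16 (r = 0.712, rho = 0.701, adjusted permutation p = 0.0018 and 0.0027) and Tsc22d3 with Ddit4 (r = 0.62, rho = 0.606, adjusted permutation p = 0.00367 and 0.00463). Without the 2 farthest mice these were 0.83, 0.77 and 0.482. Sgk1 and Klf9, both induced by glucocorticoids, ran opposite to each other (r = -0.727, rho = -0.646, adjusted permutation p = 0.0018 and 0.00463), and the sign was the same at each age (r = -0.636 at P6, -0.856 at P15 and -0.461 at 8 weeks). This r was -0.64 without the 2 farthest mice. Klf9 ran with the neuron and progenitor markers (r = 0.932) and Sgk1 against them (r = -0.801). The part of such markers in this and the other pairs was not tested.

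Of the 9 pairs of the receptor with its targets, 1 was positive and 5 were negative past that threshold. Nr3c1 ran against Tsc22d3 (r = -0.565, rho = -0.451, adjusted permutation p = 0.022 and 0.0349) and against Mt1 (r = -0.618, rho = -0.483, adjusted permutation p = 0.0107 and 0.0255). Without the 2 farthest mice these were -0.333 and -0.455. For Mt1 the sign at P6 (r = 0.607) was opposite to that at P15 (r = -0.91) and 8 weeks (r = -0.717), a difference that was not tested. Nr3c1 ran with Sgk1 by r (0.575, or 0.44 without the 2 farthest mice, adjusted permutation p = 0.0148) and not by rho (0.367, adjusted permutation p = 0.0942). The number of negative pairs depended on scaling: with library size in place of TMM, 4 negative and 12 positive pairs passed. Pairs that passed by both r and rho numbered 18 with TMM and 7 with library size.

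**Figure D4:**
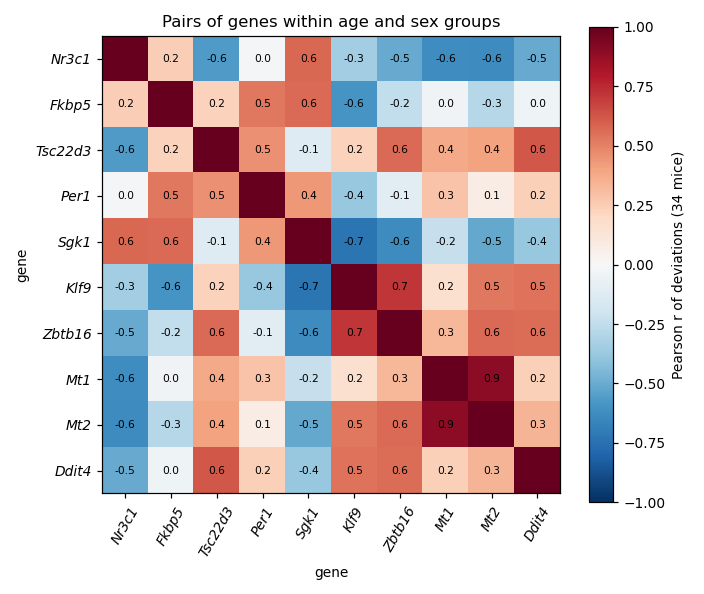
Pearson's r of the deviations from the age and sex means for the 45 pairs of members over 34 mice, on a scale from -1 to 1. Mt1 with Mt2 is the strongest positive pair at 0.891, and Sgk1 with Klf9 the strongest negative one at -0.727.

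Other genes of the pathway were counted by list. Of the 12 chaperones and co-chaperones that hold the receptor, 0 rose, 8 fell and 4 did not pass from P6 to P15. In that step 30.4% of all genes rose and 31.4% fell. From P6 to 8 weeks 2 rose, 6 fell and 4 did not pass (median log2FC -0.30), where 37.8% and 36.6% of all genes rose and fell. Stip1, which links both main chaperones, fell by 0.96, the receptor co-chaperone Bag1 by 0.70 and the chaperone Hsp90ab1 by 0.59 on the log2 scale, while Hsp90aa1 rose by 0.98 and Ppid by 0.43. From P15 to 8 weeks 5 rose and 3 fell, where 24% and 23.9% of all genes did. Of the 12 coregulators, 5 rose and 4 fell from P6 to 8 weeks, shares near the 37.8% and 36.6% of all genes. Nrip1, a corepressor of nuclear receptors, rose by 1.34, the acetyltransferase Ep300 by 0.93 and the coactivator Ncoa2 by 0.73, and the remodeller Smarca4 fell by 1.24 and Med14 by 0.42.

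The list of steroid supply and related receptors joins enzymes, a carrier and pumps that set how much steroid reaches a receptor with 5 other steroid receptors. Of its 11 genes 9 passed the filter, of which 7 rose and 1 fell from P6 to 8 weeks (median log2FC 1.82), where 37.8% and 36.6% of all genes did. Hsd11b1, which regenerates active corticosterone, went from 2.82 ± 0.968 CPM at P6 (SD, n = 10) to 28.8 ± 11.9 at 8 weeks (n = 12), a log2FC of 3.32 (SE 0.29, FDR 6.71e-12). Hsd11b2, which inactivates it, went the other way: its libraries held 8 to 499 counts at P6, 2 to 41 at P15 and 0 to 5 at 8 weeks, with means of 6.77, 0.482 and 0.0195 CPM. The 8-week values lie around the floor, so no fold is given. The progenitor and immature neuron markers fell over the same ages, with median sums of 1658, 326 and 103 CPM. Their part in the fall of Hsd11b2 was not tested. The efflux pump gene Abcb1a rose by 2.74 on the log2 scale (FDR 3.43e-07), and Nr3c2, the mineralocorticoid receptor that also binds corticosterone, by 2.43 (FDR 1e-14). Abcb1a also belongs to brain endothelium, whose 6 markers had median sums of 61.8 CPM at P6, 143 at P15 and 166 at 8 weeks. Their part in the result was not tested. Serpina6, the plasma corticosteroid-binding globulin, had 0 counts in all 34 mice, which allows up to 0.129 CPM in the shallowest library. Esr2 had 0 counts at 8 weeks and at most 5 in any mouse.

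Among 20 other genes that glucocorticoids induce, 13 rose and 3 fell from P6 to P15, 12 rose and 1 fell from P15 to 8 weeks, and 15 rose and 2 fell from P6 to 8 weeks (median log2FC 1.13). The shares of all genes that rose and fell were 30.4% and 31.4%, 24% and 23.9%, and 37.8% and 36.6%. From P6 to 8 weeks 9 rose and 1 fell by more than 2-fold, where 11.5% and 12.4% of all genes did. Fam107a, an actin-bundling stress gene also known from astrocytes, rose by 4.96, from 6.17 ± 2.54 to 196 ± 68.0 CPM. Tgm2, a transglutaminase, rose by 4.18 (FDR 4.2e-23), and the lipid droplet gene Plin4 by 4.55, a fitted value that rests on 0 to 6 counts per mouse at P6. Angptl4, an inhibitor of lipoprotein lipase, fell by 1.84 (FDR 3.13e-08), and the cell cycle inhibitor Cdkn1a by 0.90. Of 13 paralogs of the members, 8 rose and 3 fell from P6 to 8 weeks (median 0.71), with Nr3c2 (2.43), Sgk2 (2.19) and Mt3 (1.31) the largest rises and Tsc22d1 (-1.44), Fkbp4 (-0.58) and Klf16 (-0.29) the falls.

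Lists for other inputs to the members were counted in the same way. Of all genes, 30.4% rose and 31.4% fell from P6 to P15, and 37.8% rose and 36.6% fell from P6 to 8 weeks. Of 18 clock genes, 12 rose and 2 fell from P6 to P15, and 14 rose and 2 fell from P6 to 8 weeks (median log2FC 1.01). Npas2 rose by 2.41, Hlf by 2.04 and the repressor Nr1d1 by 1.5, while Cry1 fell by 1.12 and Nfil3 by 0.36. Of the 20 immediate-early and heat-shock genes, 8 rose and 3 fell from P6 to P15, and 15 rose and 1 fell from P6 to 8 weeks (median 0.80). The inducible heat-shock genes Hspa1b and Hspa1a rose by 5.94 and 5.12, Btg2 rose by 2.11, and Ier2 fell by 0.44. Hspa1b and Hspa1a are near-identical copies, so reads that match both may be missed. The list of hypoxia and the integrated stress response, with which Ddit4 is shared, held 12 genes. From P6 to 8 weeks 5 rose, 3 fell and 4 did not pass (median 0.21). The part that rose was near the share of all genes, and the part that fell was below it. Trib3 (1.11), Vegfa (1.08) and Slc2a1 (0.83) led upwards, and Egln3 (-2.96), Asns (-1.34) and Bnip3 (-0.78) downwards. Of 10 genes of zinc handling 6 rose and 3 fell (median 0.29), with Mt3 (1.31), Slc39a14 (0.78) and Slc30a1 (0.61) rising and Slc39a6 (-0.85), Slc39a8 (-0.56) and Slc39a1 (-0.24) falling.

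**Figure D5:**
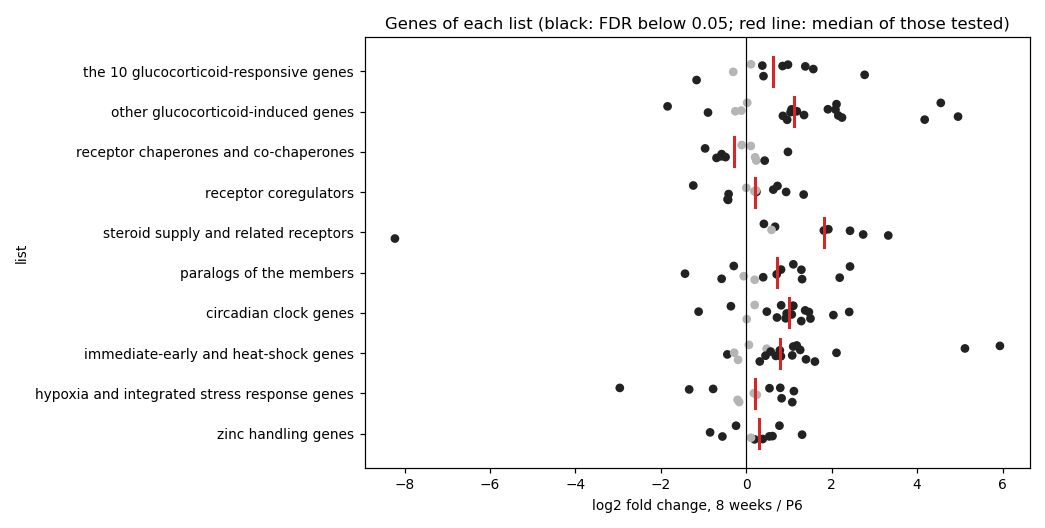
The log2FC from P6 to 8 weeks of the genes tested in each list, 1 point per gene, black where the FDR was below 0.05 and grey elsewhere, with the median of the list as a red line. Among the lists drawn, which leave out the cell type markers, the steroid supply list has the highest median (1.82) and the chaperone list the lowest (median -0.30).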

How the data were processed

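Total RNA of CD45+ve cells was made into directional libraries, 1 per mouse, and sequenced as paired ends. The authors mapped the reads to mm10/GRCm38 with STAR and deposited raw counts per Ensembl gene, made with featureCounts in the reverse-stranded setting for read pairs. The annotation release is not given in the sources used here, and names and exon lengths were taken from GENCODE M21 (55141 of 55401 identifiers matched). The members and all gene lists were chosen with earlier results of these data known.

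Groups were the 6 combinations of age and sex in the labels. The study removed 1 mouse as an outlier. P6 female 6, which is not among the mice it lists, was left out, leaving 34 mice. Genes reaching 0.5 CPM in 5 mice or more went into the tests, made with edgeR 4.0.16 (R 4.3.3): TMM scaling, robust quasi-likelihood fit, Benjamini-Hochberg adjustment over 17612 genes, and TREAT at 2-fold. An age comparison is the average of the female and the male one. CPM values are TMM-scaled, and RPKM divides them by the union of exons. Fold changes are those of the edgeR fit at its default prior count. A prior count of 2 was used for the log2 CPM values only.

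Correlations used log2 CPM minus the age and sex mean, with 100000 two-sided permutations within groups, adjusted over 45 pairs or 70 relations. Marker covariates were the mean log2 CPM of a list. Alternatives were limma-voom (limma 3.58.1), DESeq2 1.42.0, other scalings, filters and covariates, a replicate block and leaving out each mouse. The astrocyte covariate, the fit with 3 marker covariates and the list counts under each alternative were added after seeing the data. Scripts were tested on simulated data. Named genes are the 10 members, the 3 most alike per member, the called list genes with the largest change from P6 to 8 weeks (at most 3 per list and direction), and list genes at or under 3 counts in every mouse of an age. The value of 1 list gene that this rule names is not reported here. The 0-count limits cover counting error only. The labels name no batch or litter, each mouse gave 1 library, and p-values measure the spread between these mice. Within groups no 2 libraries were as alike as sampling noise (lowest chi-square 12.72 per gene over 85 pairs). Motifs were searched in 16 RefSeq windows of 8 members. Nr3c1 and Zbtb16 were not searched.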

Additional observations from a re-analysis of the deposited data

Results flagged for a closer look

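In 6 of 60 combinations of a member with an age and sex group, 1 mouse lay far from the rest by Dixon's ratio, its gap to the nearest mouse over the range of the group, read against the 95% critical value for 4 or 6 mice. Chance gives about 1 in 20. P15 male 1 accounted for 3 of them: Nr3c1 (ratio 0.735, 57.0 CPM with the next male at 123), Tsc22d3 (0.72, 248 CPM with the next at 150) and Ddit4 (0.772, 179 CPM with the next at 79.5). The astrocyte, neuron and oligodendrocyte markers of this mouse were 1.06, 1.19 and 1.33 above its group's mean in log2 CPM, and their part in these values was not tested. The other 3 were Nr3c1 in P6 female 1 (ratio 0.841, 60.9 CPM with the next at 70.4), Fkbp5 in P6 male 5 (0.662, 73.0 CPM with the next at 60.2) and Per1 in 8-week female 6 (0.634, 484 CPM with the next at 266).

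P6 female 6, which stood in no comparison, had 35.7 CPM of Klf9, above the 7.38 to 27.8 CPM of the other P6 mice. Its values lay below those of all other P6 mice for 4 members (Fkbp5 40.9, Tsc22d3 47.2, Per1 102 and Sgk1 112 CPM) and within their range for 5. Its neuronal markers summed to 1515 CPM and its microglial markers to 2487 CPM, outside the P6 ranges of 276 to 926 and 5597 to 10063 CPM.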

How the results depend on the processing

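Outside the fits with marker covariates, no member's log2FC that was called changed sign in any alternative. Of the calls, 14 were lost in those settings and 45 on leaving out 1 mouse, all of Per1, Klf9, Zbtb16 or Mt1. The count past 2-fold from P6 to P15, 3, was 1 with library size in place of TMM, in limma-voom and in DESeq2. Leaving out each mouse gave 8 to 9 members called from P6 to P15, 3 to 4 from P15 to 8 weeks, 6 to 8 from P6 to 8 weeks and 0 between sexes. Library size without TMM shifted the median of all genes to -0.14 from P6 to P15 and -0.10 from P6 to 8 weeks, with 24.7% higher and 38% lower in the former and 32.2% and 41.6% in the latter. With a replicate block, 8, 3 and 7 members passed, and the calls lost were Zbtb16 from P6 to P15 (-0.71, FDR 0.052), Klf9 from P15 to 8 weeks (-0.49, FDR 0.0573) and Per1 from P6 to 8 weeks (0.36, FDR 0.0615). Equal numbers did not pair mice: 27 of 80 same-numbered pairs correlated above 0.1, with a median r of 0.0325. Outside the covariate fits, list counts that moved by more than 1.5 times in 1 direction included, from P6 to P15, hypoxia genes higher (4, down to 2), coregulators higher (3, up to 5), immediate-early genes lower (3, up to 5) and zinc genes lower (2, down to 1), and from P15 to 8 weeks hypoxia genes lower (1, up to 3).

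Marker covariates share variation with age, and the cause of the changes they made was not tested. With 3 marker covariates (neuron and progenitor, astrocyte and oligodendrocyte) 5 members passed from P6 to P15 and 3 from P6 to 8 weeks, 1 of them past 2-fold, and with the immediate-early covariate 5 passed from P6 to 8 weeks. The shares of all genes called fell too: with 3 marker covariates 11.3% were higher and 12.5% lower from P6 to P15, and 10.4% and 11.2% from P6 to 8 weeks. From P6 to 8 weeks the higher share was 25.3% with the neuron and progenitor covariate, 23% with the immediate-early one and 36.7% with the astrocyte one, against 37.8% without. Beside these, the counts of list genes higher from P6 to 8 weeks ran from 1 to 7 for steroid supply and related receptors (7 without a covariate), 6 to 14 for other induced genes (15), 4 to 13 for clock genes (14), 0 to 7 for paralogs (8), 1 to 6 for coregulators (5), 4 to 18 for immediate-early genes (15), 1 to 5 for hypoxia genes (5) and 0 to 5 for zinc genes (6). Chaperones lower from P6 to P15 ran from 1 to 10 (8). The log2FC of a member changed sign in 27 cases with a call in at least 1 of both fits, and over all alternatives but leaving out mice in 12 more with none. With the neuron and progenitor covariate these were Zbtb16 from P6 to P15 (0.35), Sgk1 (-0.57), Klf9 (1.06), Zbtb16 (1.33), Mt2 (0.95) and Ddit4 (0.24) from P15 to 8 weeks, and Fkbp5 (-0.52), Per1 (-0.13), Zbtb16 (1.68) and Ddit4 (1.27) from P6 to 8 weeks. With the astrocyte covariate they were Mt1 (-0.13) and Mt2 (-0.49) from P6 to P15, and Klf9 (-0.26), Mt1 (-0.14) and Mt2 (-0.41) from P6 to 8 weeks. With the immediate-early covariate they were Klf9 from P15 to 8 weeks (0.15) and Per1 from P6 to 8 weeks (-0.64). With the 3 marker covariates they were Zbtb16 (0.995), Mt1 (-0.88) and Mt2 (-0.66) from P6 to P15, Sgk1 (-0.58), Klf9 (0.74), Zbtb16 (1.28) and Ddit4 (0.34) from P15 to 8 weeks, and Zbtb16 (2.28), Mt1 (-1.25) and Mt2 (-0.63) from P6 to 8 weeks. The rises of Nr3c1, Tsc22d3 and Sgk1 from P6 kept their direction in every alternative run.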
